A study of Mus musculus with 11 samples.

Results

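The 7 genes described here encode the multi-domain proteins of the BCL2 family that decide whether the outer mitochondrial membrane stays closed. They were taken as a fixed list, 4 survival genes (*Bcl2*, *Bcl2l1*, *Bcl2l2* and *Mcl1*) and 3 effector genes (*Bax*, *Bak1* and *Bok*), out of 35056 genes to which the reads were assigned. All 7 passed the filter on low counts that left 14106 genes for testing. RNA was sequenced in bulk from KP1 cells, an Rb/p53 mutant mouse small cell lung cancer (SCLC) line of the neuroendocrine kind, grown in culture. The control group was 2 libraries of untreated cells, numbered 2 and 3, and the irradiated group was 3 libraries of cells collected 24 h after 5 Gy, numbered 1, 2 and 3. All 5 libraries share the cell line and its mutations, so they stand for 1 line and not for SCLC at large. The labels do not say whether the libraries of a group came from separate cultures, and p-values then measure only the spread between these libraries. In bulk RNA, fewer cells that express a gene and less RNA per cell cannot be told apart.

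BCL2, BCL-XL (from *Bcl2l1*), BCL-W (from *Bcl2l2*) and MCL1 keep cells alive by holding the effectors in check. BAX and BAK, once freed or activated, assemble in the outer mitochondrial membrane and open pores through which cytochrome c leaves to start the caspase cascade, and BOK is a related effector that can act without them. A groove on the surface of these proteins receives a short helix, the BH3 region, of a partner, which is how survival proteins, effectors and the smaller BH3-only proteins bind each other.

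The coding stretches of the BH3 region are shown because the survival proteins and the effectors both carry this helix. They were read from the GENCODE M21 transcripts of mouse, 5′ to 3′, and capitals mark the codon of the conserved leucine (methionine in *Bcl2l2*) and the codons of the glycine and aspartate pair.
Bcl2: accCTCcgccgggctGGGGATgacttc
Bcl2l1: gcgCTGagagaggcaGGCGATgagttt
Bcl2l2: gccATGcgggctgctGGAGACgagttt
Mcl1: accCTGcggcgcgtgGGCGACggcgtg
Bax: tgtCTCcggcgaattGGAGATgaactg
Bak1: cagCTTgctctcatcGGAGATgatatt
Bok: gtgCTGctgcgcttgGGAGATgagctg
The first marked codon is number 94 of 236 in Bcl2-201, 90 of 233 in Bcl2l1-201, 46 of 193 in Bcl2l2-201 and 194 of 331 in Mcl1-201. In the effectors it is number 63 of 192 in Bax-201, 76 of 209 in Bak1-202 and 71 of 213 in Bok-201. Each stretch occurred once in its coding sequence, and *Mcl1* carried by far the longest coding part ahead of it.

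In these libraries 2 effector genes rose and 1 survival gene fell after irradiation. *Bax* was 2.26-fold higher in irradiated than in control cells and *Bok* was 2.04-fold higher, while *Bcl2* was 2.34-fold lower (adjusted p = 0.0184, 0.0101 and 0.0130 by edgeR's quasi-likelihood test, with the Benjamini-Hochberg method applied to all 14106 genes). *Bcl2l1*, *Bcl2l2*, *Mcl1* and *Bak1* did not pass an adjusted p of 0.05. The order of these differences followed a trend with transcript length that spanned the whole transcriptome. Once that trend was removed, none of the 7 genes passed. The GC content of the transcripts ran in a similar order to the fold changes. Of all genes tested, 12.7% were called higher and 13.0% lower, against 2 and 1 of the 7 genes.

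The libraries held 21185956 to 31036317 reads. The read-weighted mean transcript length was 5463 and 4729 bases in the control libraries and 3625 to 3998 bases in the irradiated ones, so that control replicate 2 stood furthest out. Neuroendocrine markers were abundant, with *Chga* at 278 to 475 TPM (a level scaled to transcript length and to the same total in each library), with 2 of 6 called higher and 1 lower, and their summed level was 1121 and 1227 TPM in control and 965.4 to 1145 TPM in irradiated libraries. Of 7 leukocyte markers, 5 had fewer than 3 reads in every library, among them *Cd14*, *Csf1r* and *Lyz2*, and the summed level of the list was 4.55 and 6.91 TPM in control against 1.21 to 1.62 TPM in irradiated libraries, with 1 marker tested and not called. The lung epithelial list summed to 7.84 and 12.3 TPM in control and 12.7 to 17.6 TPM in irradiated libraries, with *Scgb1a1* and *Krt5* at 0 reads and *Sftpc* higher (log2 fold change 1.72, adjusted p = 0.0276 by edgeR). The fibroblast and endothelial list summed to 57.7 and 68.6 TPM in control against 37.0 to 52.2 TPM in irradiated libraries, most of it from *Pdgfra*, and its 3 tested genes did not pass. The part of other cells in the results below was not tested.

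On the TPM scale, which divides reads by transcript length, the control libraries ranked *Bcl2l1* first, at 107.3 ± 0.1 TPM (SD, n = 2). *Bax* at 102.8 ± 19.7, *Bok* at 84.9 ± 6.5 and *Mcl1* at 79.5 ± 1.1 followed. *Bak1* at 33.6 ± 3.2 TPM, *Bcl2l2* at 22.3 ± 5.7 and *Bcl2* at 11.2 ± 3.8 came below them. *Bcl2l1* and *Bax* overlapped between libraries, as did *Bax* and *Bok*, and *Bok* and *Mcl1* met at 80.3 TPM in control replicate 2. The 3 lower genes were apart from those above and from each other.

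After irradiation the order at the top was different. *Bax* led with 191.2 ± 52.9 TPM (SD, n = 3), above *Bok* at 122.6 ± 7.4 and *Bcl2l1* at 113.9 ± 14.7, whose libraries overlapped. *Mcl1* at 67.7 ± 3.6 TPM, *Bak1* at 33.5 ± 4.4, *Bcl2l2* at 18.8 ± 0.6 and *Bcl2* at 3.99 ± 0.71 kept their places. The scarcest member, *Bcl2*, was thus at a small part of the level of *Mcl1* and *Bcl2l1* in every library. Neither ranking was corrected for the trend with transcript length described below, which differs between libraries and which TPM does not remove. *Bax* and *Bok* are shorter than *Bcl2l1* (886 and 1240 against 1993 bases).

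**Figure D1:**
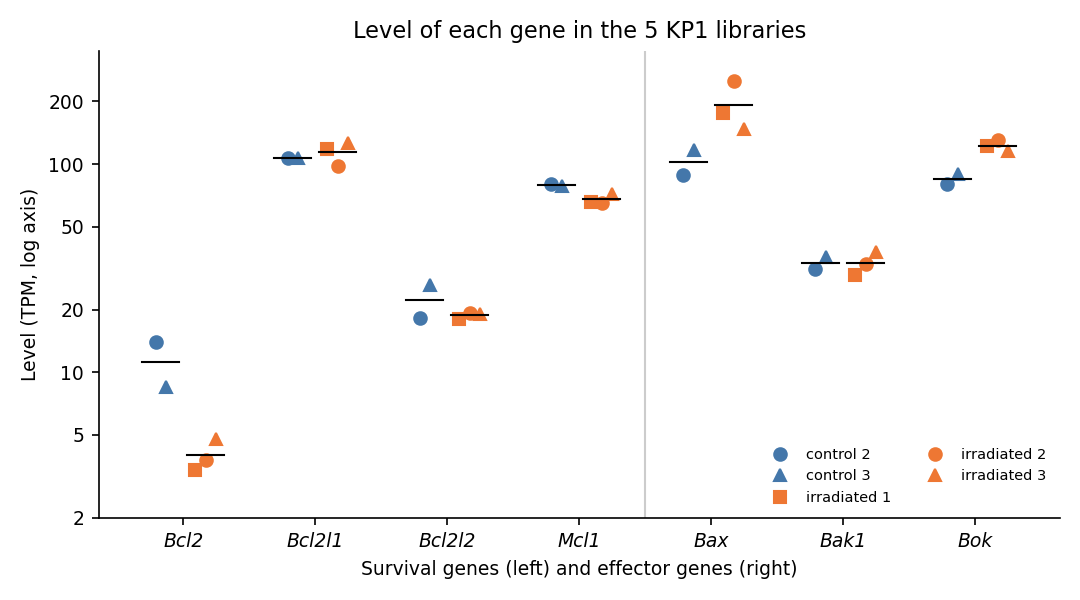
Level of each gene in each library in TPM on a log axis, with survival genes left and effector genes right of the grey line. Blue points are the 2 control libraries and orange points the 3 irradiated libraries, marker shapes give the replicate number and black bars the group means. Irradiated *Bcl2* lies below both controls (3.41 to 4.78 against 8.54 and 13.9 TPM), while *Bax* and *Bok* lie above both controls.

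*Bcl2* (ENSMUSG00000057329.7, GRCm38 chr1:106538178-106714274, minus strand) encodes the founding survival protein of the family. It was at 13.9 and 8.54 TPM in control replicates 2 and 3, and at 3.41, 3.77 and 4.78 TPM in irradiated replicates 1, 2 and 3. In CPM, which are read counts scaled by TMM between libraries but not by length, it was at 52.8 and 30.9 in control and at 15.3, 17.7 and 20.6 in irradiated libraries. Every irradiated library was below both controls on both scales, and the controls differed from each other by 0.77 on the log2 scale. The log2 fold change was −1.23 (SE 0.25, 95% interval −1.79 to −0.66). Without control replicate 2, where *Bcl2* was highest, it was −0.77 with an adjusted p of 0.0905 by edgeR, with the lone control assumed to vary like the irradiated libraries, and without control replicate 3 it was −1.54 with an adjusted p of 0.00495.

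*Bcl2l1* (ENSMUSG00000007659.18, GRCm38 chr2:152780668-152831728, minus strand), the BCL-XL gene, was the most abundant survival gene in all 5 libraries. It was at 107.4 and 107.2 TPM in control and at 117.8, 97.7 and 126.3 TPM in irradiated libraries. The TPM of the groups overlapped, whereas in CPM the irradiated libraries (121.5 to 133.7) were all above the controls (91.8 and 104.1). The log2 fold change of 0.40 (SE 0.14, 95% interval 0.07 to 0.73) had an adjusted p of 0.0732 by edgeR. It passed when scaled by upper quartiles (adjusted p = 0.0463) or by library size alone (adjusted p = 0.0367), and the adjusted p by DESeq2 was 0.0506.

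*Mcl1* (ENSMUSG00000038612.16, GRCm38 chr3:95658788-95663176, plus strand) encodes a survival protein known for its fast turnover. It was at 80.3 and 78.8 TPM in control and at 66.1, 65.1 and 71.8 TPM in irradiated libraries. In CPM the order was the opposite, at 125.1 and 131.7 in control and 136.8, 142.0 and 141.6 in irradiated libraries. The groups were apart on both scales but in opposite directions, and neither difference passed (log2 fold change 0.13, SE 0.14, 95% interval −0.18 to 0.44, adjusted p = 0.514 by edgeR, and −0.23, adjusted p = 0.264, by limma on TPM).

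*Bcl2l2* (ENSMUSG00000089682.10, GRCm38 chr14:54883377-54888234, plus strand), the BCL-W gene, was at 18.2 and 26.3 TPM in control and at 18.1, 19.2 and 19.0 TPM in irradiated libraries. The irradiated libraries lay within or just under the span of the controls, and the log2 fold change of 0.06 (SE 0.17, 95% interval −0.32 to 0.43, adjusted p = 0.827 by edgeR) was −0.22 on TPM and −0.05 without control replicate 2. The gene shares 4794 bases with the same-strand readthrough gene *Gm20521*. In the longest match between their transcripts, a *Gm20521* transcript of 1245 bases matched Bcl2l2-201 over 595 bases without a mismatch. Salmon gave *Gm20521* 323.8 and 108.1 reads in control and 35.4 to 74.5 reads in irradiated libraries, against 788 to 978 reads for *Bcl2l2*, and the division between both is uncertain.

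*Bax* (ENSMUSG00000003873.11, GRCm38 chr7:45461697-45466898, minus strand) encodes the effector that moves from the cytosol to mitochondria when activated. It was at 88.8 and 116.7 TPM in control and at 176.2, 250.0 and 147.5 TPM in irradiated libraries. The CPM were 29.5 and 37.7 in control and 68.3, 103.3 and 56.0 in irradiated libraries. Every irradiated library was above both controls, irradiated replicate 2 highest, with a spread between irradiated libraries that was the widest of the 7 genes. The log2 fold change was 1.18 (SE 0.27, 95% interval 0.56 to 1.79), and without control replicate 2 it was 1.03 with an adjusted p of 0.102 by edgeR.

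*Bok* (ENSMUSG00000026278.14, GRCm38 chr1:93685660-93695764, plus strand) encodes the effector that the survival proteins restrain least. It was at 80.3 and 89.5 TPM in control and at 122.2, 130.2 and 115.5 TPM in irradiated libraries. In CPM it was at 36.4 and 43.0 in control and at 81.1, 93.3 and 68.2 in irradiated libraries. The groups were apart on both scales, with a log2 fold change of 1.03 in counts (SE 0.18, 95% interval 0.61 to 1.44) and of 0.53 on TPM (adjusted p = 0.0402 by limma). Without control replicate 2 it was 0.93 with an adjusted p of 0.0630 by edgeR.

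*Bak1* (ENSMUSG00000057789.14, GRCm38 chr17:27019810-27029009, minus strand) encodes BAK, which resides in the outer mitochondrial membrane. It was at 31.4 and 35.8 TPM in control and at 29.2, 33.2 and 38.0 TPM in irradiated libraries. The groups overlapped, and the log2 fold change of 0.26 (SE 0.17, 95% interval −0.14 to 0.65) had an adjusted p of 0.291 by edgeR. It was the effector that did not pass, and the difference between its change and that of *Bax* or *Bok* was not tested. All of *Bak1* lies within *Ggnbp1* on the opposite strand, for which Salmon counted 60.7 to 121.4 reads under its main identifier, against 883 to 1245 reads for *Bak1*. The labels do not say whether the libraries keep the strand of the RNA, and without it reads of overlapping genes on opposite strands cannot be told apart. The same holds for *Bcl2*, which overlaps the antisense gene *D630008O14Rik*, not used here.

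**Figure D2:**
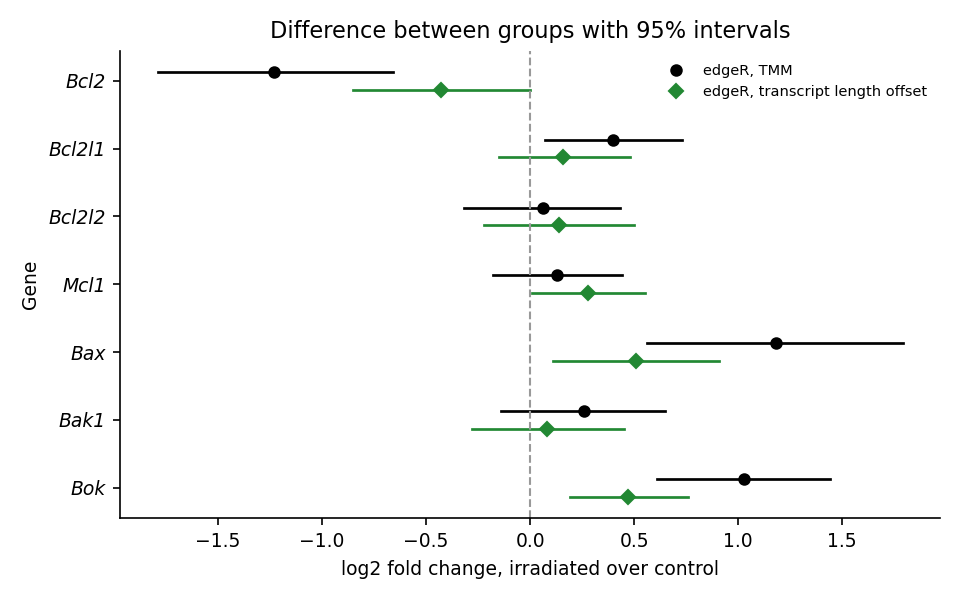
Log2 fold change of irradiated over control libraries for each gene, with 95% intervals as lines. Black circles are edgeR after TMM scaling and green diamonds are edgeR after a transcript length offset. *Bax*, *Bok* and *Bcl2* lie at 1.18, 1.03 and −1.23 without the offset and at 0.51, 0.47 and −0.43 with it.

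By CPM, 4 of the 7 genes (*Bcl2l1*, *Mcl1*, *Bax* and *Bok*) had all irradiated libraries above both controls, and 1 (*Bcl2*) had all of them below. Of all genes tested, 30.1% and 29.3% did so. A stricter call took an adjusted p under 0.05 with a log2 fold change above 1.5 or below −1.5. None of the 7 genes passed it by edgeR or by DESeq2. By edgeR, 1.63% of all genes passed it higher and 1.90% lower. The median log2 fold change of the 7 genes was 0.26 and that of all genes 0.017. On TPM the median of all genes moved to −0.272, a shift of −0.289, and limma called 717 genes higher and 2681 lower where edgeR on counts called 1786 and 1827. Relative to that median, the TPM changes were 1.14 for *Bax*, 0.80 for *Bok*, 0.35 for *Bcl2l1*, 0.26 for *Bak1*, 0.05 for *Bcl2l2*, 0.04 for *Mcl1* and −1.09 for *Bcl2*.

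The order of the 7 genes by fold change followed their transcript length closely. The mean lengths, weighted by TPM, were 886 bases for *Bax*, 1240 for *Bok*, 1993 for *Bcl2l1*, 2161 for *Bak1*, 3095 for *Bcl2l2*, 3351 for *Mcl1* and 7110 for *Bcl2*, most of it in the 5089 bases of 3′ untranslated region and stop codon of Bcl2-201. The same slope held over all genes tested. Sorted into 10 classes of equal size by length, the genes tested had a median log2 fold change of 0.77 in the shortest class and of −0.78 in the longest. GC content ran in a similar order, at 62.1% for *Bok*, 59.5% for *Bax*, 57.0% for *Bak1*, 55.8% for *Bcl2l1*, 53.5% for *Bcl2l2*, 49.0% for *Mcl1* and 46.2% for *Bcl2*. With an offset that removes the trend with GC content alone, *Bax* was at 0.85, *Bok* at 0.62 and *Bcl2* at −1.09. All 3 were still called (adjusted p = 0.0385, 0.0339 and 0.0190 by edgeR). The parts of length and GC content in these changes were not tested.

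Set against its own length class, *Bax* was 0.40 above its median of 0.77, *Bok* was 0.48 above its median of 0.55, and *Bcl2* was 0.45 below its median of −0.78. The other genes were nearer, with *Bcl2l1*, *Bak1*, *Bcl2l2* and *Mcl1* between 0.12 and 0.22 above. All 3 genes that passed therefore deviated in the direction of their length class and by somewhat more than its median. Over all genes the control libraries differed along the same axis, though not every one of the 7 genes did. In control replicate 2 over control replicate 3, *Bcl2* stood at a log2 ratio of 0.77 where its length class had a median of 0.31, and *Bax* stood at −0.36 where its class had −0.23. *Bok* (−0.24) and *Bak1* (−0.17) also had the sign of their class, whereas *Bcl2l1* stood at 0.18 against −0.12, *Bcl2l2* at −0.26 against 0.03 and *Mcl1* at −0.07 against 0.03.

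**Figure D3:**
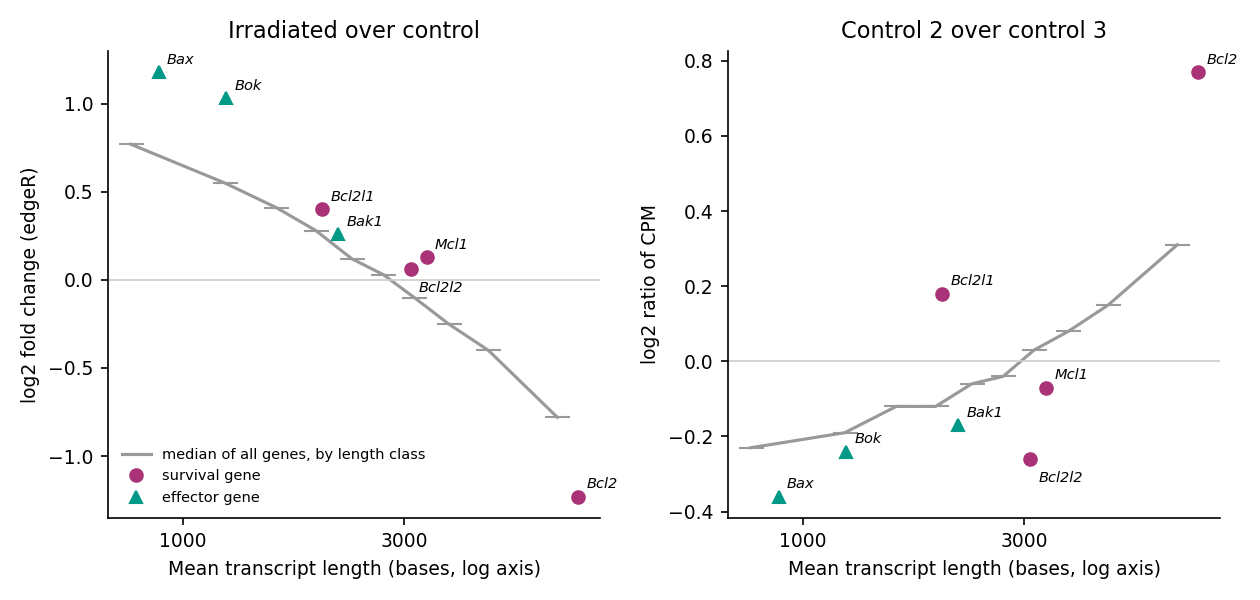
Left, log2 fold change of irradiated over control libraries against mean transcript length in bases on a log axis; right, log2 ratio of control replicate 2 over control replicate 3. Circles are survival genes, triangles effector genes, and the grey line joins the medians of all genes tested by length class, which fall from 0.77 to −0.78 on the left and climb from −0.23 to 0.31 on the right.

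With an offset that removes the trend with transcript length in each library, the log2 fold changes were 0.51 for *Bax* (SE 0.17, adjusted p = 0.0999 by edgeR), 0.47 for *Bok* (SE 0.12, adjusted p = 0.0568) and −0.43 for *Bcl2* (SE 0.18, adjusted p = 0.163). *Mcl1* came to 0.28 (SE 0.12, adjusted p = 0.160), and *Bcl2l1*, *Bcl2l2* and *Bak1* to 0.08 to 0.16. None of the 7 genes passed in this fit, in which 3.04% of all genes were called higher and 4.10% lower. An unadjusted p under 0.05 was found for 4 of them by edgeR, and the share of all genes at that threshold was not counted. The offset removes such a trend whether it was made in the cells or in the preparation of the RNA, and which of these it was cannot be told apart with these libraries.

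Effector genes made up a larger share of the family's TPM in each irradiated library than in either control. The 3 effector genes summed to 200.5 and 242.0 TPM in control and to 327.7, 413.5 and 300.9 TPM in irradiated libraries, while the 4 survival genes summed to 219.8 and 220.9 TPM and to 205.4, 185.7 and 221.9 TPM. The effector sum over the survival sum was 0.912 and 1.10 in control and 1.60, 2.23 and 1.36 in irradiated libraries. *Bax* alone made up 21.1% and 25.2% of the 7 genes in control and 28.2% to 41.7% in irradiated libraries, and *Bcl2* 3.31% and 1.84% against 0.630% to 0.914%. *Bok* made up 19.1% and 19.3% against 21.7% to 22.9%, while the *Bak1* share was lower in each irradiated library, at 5.49% to 7.26% against 7.47% and 7.74%. The ratio of *Bax* to *Bcl2* was 6.38 and 13.7 in control and 51.6, 66.3 and 30.9 in irradiated libraries. These sums and ratios are descriptions without a test, and the ratio of *Bax* to *Bcl2* sets the shortest of the 7 genes against the longest. The effector genes (886 to 2161 bases) are also mostly shorter than the survival genes (1993 to 7110 bases). Neither the sums nor the shares were corrected for the trend with transcript length.

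**Figure D4:**
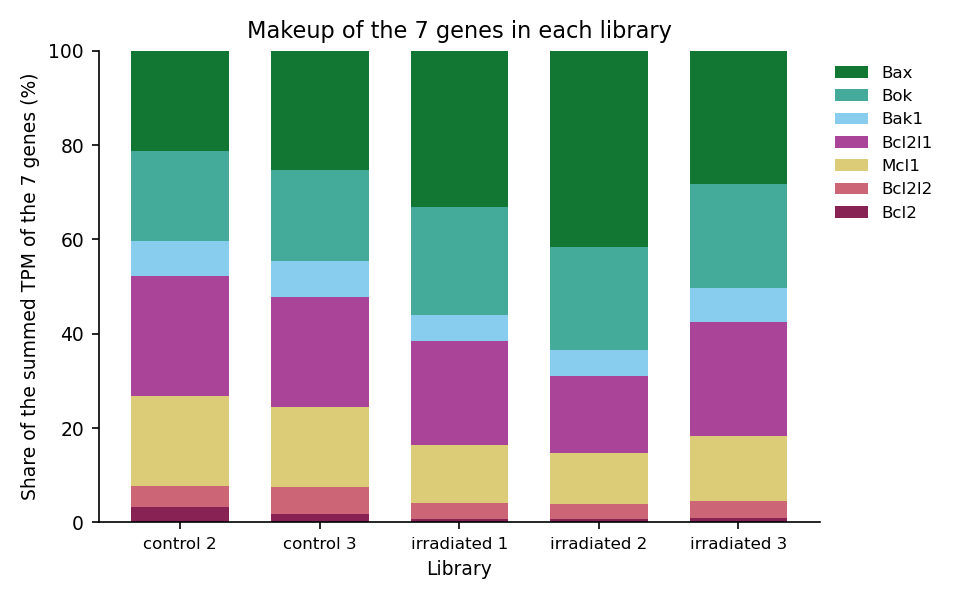
Share of each gene in the summed TPM of the 7 genes, in percent, as stacked bars for the 5 libraries, with effector genes in green and blue at the top and survival genes below. The *Bax* share is 21.1% and 25.2% in the control bars and 28.2% to 41.7% in the irradiated bars.

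Salmon divides the reads of a gene between its annotated transcripts, and 32 transcripts of the 7 genes were in the files, of which 21 passed the filter on low counts. Among 40772 transcripts tested by edgeR, 0 were called and 8463 had an unadjusted p under 0.05, among them 7 transcripts of these genes. Without the filter on low counts 1378 of 71703 transcripts were called, including Bax-201 (log2 fold change 1.62, adjusted p = 0.0293) and Bok-201 (1.43, adjusted p = 0.0251).

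For *Bax*, the transcript of the full coding sequence of 192 codons, Bax-201, carried 69.2 and 89.6 TPM in control and 152.0, 207.0 and 126.0 TPM in irradiated libraries. That was 76.8% to 77.9% of the gene in control and 83.0% to 86.1% in irradiated libraries. Its log2 fold change was 1.53 (SE 0.30, adjusted p = 0.0911 by edgeR) and that of Bax-203, whose annotated coding sequence is incomplete at the 3′ end, was 0.95 (SE 0.47, adjusted p = 0.310).

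For *Bok* the transcript with the most TPM was also the one with the larger fold change. Bok-201, of 1468 bases and 213 codons, was at 48.3 and 61.6 TPM in control and at 98.8, 110.0 and 84.3 TPM in irradiated libraries (log2 fold change 1.34, SE 0.22, adjusted p = 0.0894 by edgeR). Bok-203, a fragment of 547 bases, was at 29.9 and 25.7 TPM in control and at 21.8, 20.5 and 29.0 TPM in irradiated libraries (0.23, SE 0.44, adjusted p = 0.818). Neither transcript passed, and the difference between them was not tested in either gene.

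*Bak1* was split between transcripts that differ in their annotated coding sequence. Bak1-201, annotated as a target of nonsense-mediated decay with 151 codons, held 53.8% and 47.4% of the gene's TPM in control and 67.3%, 58.3% and 49.9% in irradiated libraries, so the groups overlapped. Bak1-202, with the full 209 codons, was at 14.5 and 18.8 TPM in control and at 9.58, 13.9 and 19.0 TPM in irradiated libraries. The *Bak1* level given above therefore counts a large share of RNA that is not annotated with the full coding sequence.

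For *Bcl2l1*, Bcl2l1-201 and Bcl2l1-202 have the same coding sequence of 233 codons, that of BCL-XL, and together held most of the gene's TPM in every library. Bcl2l1-201 was at 47.1 and 30.7 TPM in control and at 46.3, 41.2 and 39.5 TPM in irradiated libraries, and Bcl2l1-202 at 27.6 and 34.9 and at 31.7, 31.2 and 44.7 TPM. *Bcl2* was almost wholly Bcl2-201, with 95.5% to 99.7% of its TPM. *Mcl1* was Mcl1-201 alone in 4 libraries, and 85.1 reads in control replicate 2 went to the short Mcl1-202.

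**Figure D5:**
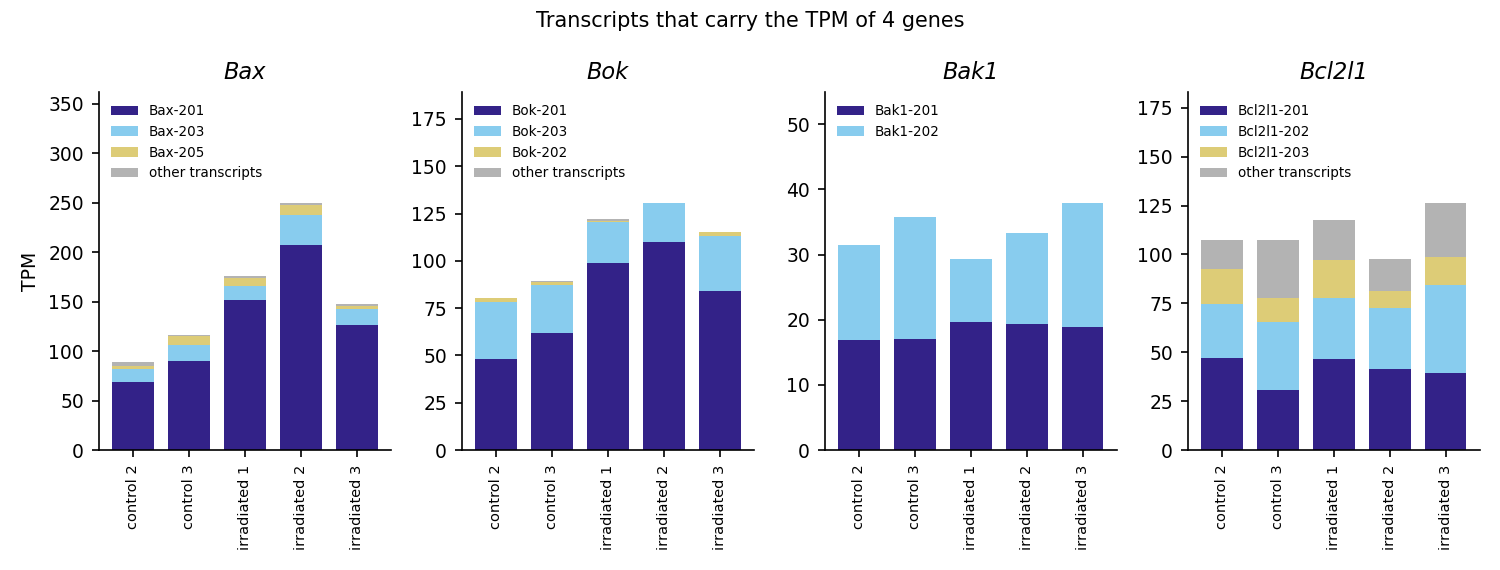
TPM of the main transcripts of *Bax*, *Bok*, *Bak1* and *Bcl2l1* as stacked bars for the 5 libraries, with up to 3 transcripts in colour and the rest in grey. Bax-201 and Bok-201 are higher in all irradiated bars than in both control bars, while Bak1-201 holds 47.4% to 67.3% of *Bak1*.

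The promoters of the 3 genes that passed the test are shown because these genes moved in different directions. They are RefSeq's upstream bases for GRCm38.p6, 5′ to 3′ on the strand of the gene and ending at its RefSeq start, with capitals for GGGCGG (the GC box, on either strand) and CACGTG (the E-box).
Bax, chr7:45466899-45467148, minus strand: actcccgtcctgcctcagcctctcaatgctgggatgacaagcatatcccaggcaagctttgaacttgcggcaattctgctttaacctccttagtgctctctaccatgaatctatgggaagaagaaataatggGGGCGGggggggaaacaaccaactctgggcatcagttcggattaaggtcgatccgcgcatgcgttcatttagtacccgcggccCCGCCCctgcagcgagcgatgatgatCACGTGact
Bok, chr1:93685325-93685574, plus strand: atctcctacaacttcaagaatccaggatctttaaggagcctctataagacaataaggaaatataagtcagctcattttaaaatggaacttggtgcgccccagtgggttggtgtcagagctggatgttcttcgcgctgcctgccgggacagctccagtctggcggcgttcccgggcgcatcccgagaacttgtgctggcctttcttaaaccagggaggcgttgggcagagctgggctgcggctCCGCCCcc
Bcl2, chr1:106714291-106714540, minus strand: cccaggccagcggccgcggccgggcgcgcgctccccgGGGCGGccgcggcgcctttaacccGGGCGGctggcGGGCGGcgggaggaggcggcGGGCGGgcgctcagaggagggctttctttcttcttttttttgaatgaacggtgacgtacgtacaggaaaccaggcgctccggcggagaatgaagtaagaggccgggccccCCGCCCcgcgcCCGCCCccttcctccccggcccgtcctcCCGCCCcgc
The GC box occurred 7 times in the *Bcl2* window, 2 times in that of *Bax* and 1 time in that of *Bok*, and 32.7% of 32851 RefSeq promoter windows hold it in the same window. The marked matches do not overlap. The *Bcl2* window has a GC content of 74.8%, against 54.0% for *Bax* and 55.2% for *Bok*. The *Bax* window alone of these 3 holds CACGTG, found in 6.02% of promoters, at base 242 of 250, and a p53 half-site by its consensus, aggcaagctt at base 50, which 7.13% of promoters hold. None of the 3 windows holds TATAAA or CCAAT, which 12.4% and 33.8% of promoters hold on either strand. Such matches describe letters and not bound sites.

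The genes around the pore were counted in 6 lists of 46 genes, of which 38 were tested. By edgeR 12 were called higher and 6 lower, where 12.7% and 13.0% of all genes were, with a median log2 fold change of 0.26. With the length offset 5 and 3 were called, where 3.04% and 4.10% of all genes were, with a median of 0.08. Of the 18 genes called, 3 (*Bmf*, *Birc6* and *Huwe1*) were also called with each single library left out. Among the 8 BH3-only genes, which trigger the effectors or block the survival proteins, 5 were called, each of them higher, with a median log2 fold change of 1.18 over the list. *Bmf* (1.51, adjusted p = 0.00825), *Bbc3*, which encodes PUMA (1.40, adjusted p = 0.00954), *Bad* (1.14, adjusted p = 0.0117) and *Bid* (0.89, adjusted p = 0.0159) had the smallest p by edgeR. *Bbc3* was not called with the GC offset (0.76, adjusted p = 0.0575 by edgeR), while *Bmf*, *Bad* and *Bid* were. On TPM *Bmf* (1.02, adjusted p = 0.0659 by limma) and *Bid* (0.49, adjusted p = 0.099) were not called. *Bbc3* and *Bad* were called on TPM. *Bid* was also lost with the replicate block described below (0.87, adjusted p = 0.0714 by edgeR), while *Bmf*, *Bbc3* and *Bad* were kept. With the length offset 4 of the 8 were called higher, *Bmf* at 1.56, *Bbc3* at 0.85, *Bid* at 0.70 and *Hrk* at 1.02. The fifth gene higher without the offset was *Bik*, with 0 and 4 reads in control and 51, 21 and 19 reads in irradiated libraries, and *Hrk* and *Bik* were named after their values were seen.

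Among the 10 genes that act after pore opening, 4 were higher and 1 lower, where 12.7% and 13.0% of all genes were. The median log2 fold change was 0.41, against 0.017 over all genes. *Cycs*, the cytochrome c gene (0.72, adjusted p = 0.0310), *Casp9*, the initiator caspase (0.53, adjusted p = 0.0314), *Diablo* (0.54, adjusted p = 0.0403) and *Htra2* (1.02, adjusted p = 0.0270), whose products counter the caspase inhibitors, were higher by edgeR. *Apaf1*, the scaffold of the apoptosome, was lower at −0.66 (adjusted p = 0.0494) and at 0.00 with the length offset, where *Casp9* alone of this list was called. The *Casp9* call was lost with each single library left out and with the GC offset (adjusted p = 0.0845 by edgeR). Without an irradiated library its adjusted p was 0.0528 to 0.0856. Those of *Diablo*, *Cycs*, *Htra2* and *Apaf1* were lost without control replicate 2. They were also lost without irradiated replicate 1 (0.0739 to 0.127 by edgeR) or 2 (0.0828 to 0.12). *Diablo* and *Apaf1* lost theirs without irradiated replicate 3 as well (0.0559 and 0.0628).

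Of the 9 membrane partners, 3 were higher and 2 lower, where 12.7% and 13.0% of all genes were. The median log2 fold change was 0.31, against 0.017 over all genes. With the length offset none was called by edgeR, while 429 of all genes were called higher and 579 lower. An unadjusted p under 0.05 was found for 4 of the 9, and the share of all genes at that threshold was not counted. The channel genes *Vdac1* (0.70, adjusted p = 0.0238) and *Vdac2* (0.50, adjusted p = 0.0386) and *Tmbim6*, a BAX inhibitor of the endoplasmic reticulum (0.52, adjusted p = 0.0342), were higher by edgeR. VDAC2 is known as a mitochondrial docking partner of BAK. *Opa1*, which keeps the inner membrane cristae closed (−0.76, adjusted p = 0.0130), and *Dnm1l*, the fission dynamin (−0.61, adjusted p = 0.0372), were lower.

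Of the 5 genes for MCL1 protein turnover 2 were called, both lower, *Huwe1*, an MCL1 ubiquitin ligase (−1.74, adjusted p = 0.00919 by edgeR), and *Usp9x*, which removes ubiquitin from MCL1 (−1.07, adjusted p = 0.00922). They act on MCL1 in opposite ways, and both have long transcripts (9257 and 5432 bases). Both were still called with the length offset, at −0.73 and −0.51, but near the threshold (adjusted p = 0.048 and 0.0476 by edgeR). Neither was called with the replicate block and length offset together (0.169 and 0.212). Of the 6 caspase inhibitor genes 4 were tested and 1 was lower, *Birc6* at −1.87 (adjusted p = 0.00899 by edgeR) and −0.95 with the offset. Over all genes tested, 13.0% were called lower without the length offset and 4.10% with it.

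The remaining list of 8 BCL2-like genes was at or near 0 reads apart from *Bcl2l12*, at 3.12 to 12.3 TPM, and *Bcl2l13*, a gene for a mitochondrial protein of BCL2-like sequence. *Bcl2l13* was at 120.0 and 44.1 TPM in control and at 76.5, 50.6 and 71.6 TPM in irradiated libraries, with overlapping groups. *Bcl2a1a*, *Bcl2a1b*, *Bcl2a1d* and *Bcl2l10* had 0 reads in all 5 libraries and *Bcl2l15* at most 2, under the floor of 3 reads. Of these genes 2 were tested and 0 were called, and 0 had an unadjusted p under 0.05 by edgeR. They were *Bcl2l12* at a log2 fold change of 0.42 (adjusted p = 0.583) and *Bcl2l13* at −0.17 (adjusted p = 0.488), named after their values were seen.

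The genes whose profile over the 5 libraries was most like that of each member were found by the root mean square difference of log2 CPM after centring. For *Bax* they were *Mrps36*, *Bmyc* and *Plekhj1* (0.0432 to 0.0529), of 676 to 983 bases, and for *Bok* they were *Ppie*, *Coq9* and *Nit2* (0.0247 to 0.0329), of 1006 to 1352 bases. For *Bcl2* they were the pseudogene *Gm48269*, *Fasn* and *Cad* (0.0469 to 0.0569), of 1111, 7786 and 6540 bases. *Bcl2l1* lay nearest to *Zfp189*, *Mfge8* and *Unc119b*, *Bcl2l2* to *Fzr1*, *Aldh3a2* and *Dffa*, *Mcl1* to *Bcar1*, *Polk* and *Scfd1*, and *Bak1* to *Fbxo4*, *Hmgcll1* and *Scly*, with differences of 0.00834 to 0.0489. The match over 5 libraries says nothing of a shared function.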

How the data were processed

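Bulk RNA from 2 untreated and 3 irradiated KP1 libraries was analysed, and single-cell samples were not analysed here. Per the paper and the submitters' processing notes, the authors quantified the reads with Salmon 0.8.2 at default settings against mm10 and tested genes with DESeq2 1.22.2, and the annotation release is not given in the sources used here. The deposited estimated counts per transcript need not be whole and are not scaled between libraries. The deposited TPM are scaled to length and to the same total per library. The deposited transcript and effective lengths, in bases, were used for offsets.

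Transcripts were matched to GENCODE M21 (112762 of 113116, 99.69%), summed per gene and rounded to whole counts. edgeR 4.0.16 in R 4.3.3 was run with filterByExpr, TMM and the quasi-likelihood test on all 14106 genes, without a block, at a common dispersion of 0.0542. limma 3.58.1 was run on log2(TPM + 0.5). Libraries held 21185956 to 31036317 reads. The floor of 3 reads covers counting error only, and TPM and read values of single libraries are given without an error. The SD of TPM is the spread between libraries, while the 95% intervals rest on edgeR's standard errors. Length and GC offsets were splines with 5 degrees of freedom fitted per library. Tests were checked on simulated counts. Alternatives were DESeq2 1.42.0, other scalings, other filters, these offsets, the replicate block and each library left out. The members and lists were chosen with earlier results of these data known. Named beside the 7 genes were, per list, up to 4 genes per direction with an adjusted p under 0.05 and the smallest p, genes under the floor, and the 3 nearest profiles of each member. Some markers of the lists are not reported here.

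The controls are numbered 2 and 3 and the irradiated libraries 1, 2 and 3. No label or method ties libraries of equal number to a shared handling.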

Additional observations from a re-analysis of the deposited data

How the results depend on the processing

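*Bax*, *Bok* and *Bcl2* kept their direction under all 20 alternatives and were each called in 16 of them. Their log2 fold changes ranged from 0.51 to 1.38, from 0.46 to 1.17 and from −1.54 to −0.31. The 20 include the block with crossed numbers described below, chosen after seeing the data, in which each of these genes was called. The scalings, the filters and the fits with a library left out do not remove the trend with transcript length. *Bcl2l2*, *Mcl1* and *Bak1* were called in none. The 2 higher and 1 lower calls among the 7 genes became 0 and 0 under the transcript length offset, under the replicate block and length offset together, and under the replicate block and GC offset together. With 1 library left out the calls ranged from 0 to 2 higher and from 0 to 1 lower, the 0 coming without control replicate 2, where 95 genes of all were called higher and 175 lower. The cause was not tested. Over all genes, 1786 higher and 1827 lower calls became 429 and 579 with the length offset, 717 and 2681 with limma on TPM, 832 and 909 without irradiated replicate 1, and 684 and 834 without irradiated replicate 2.

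The log2 ratios of replicate 2 to replicate 3 correlated at −0.196 between the groups across genes. That value rests on a single ratio per group and cannot show whether libraries of equal number were handled together. Under the block, irradiated replicate 1 has no weight. With the replicate block *Bax* was at 1.19 (adjusted p = 0.0348 by edgeR), *Bok* at 1.01 (0.0418) and *Bcl2* at −1.08 (0.0461), the calls among the 7 genes stayed at 2 and 1, and those over all genes were 602 and 494, falling to 21 and 55 with the length offset added and 1 and 2 with the GC offset added. With the numbers crossed, an alternative chosen after seeing the data, 3026 genes were called higher and 2670 lower, and 3 and 1 of the 7.

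Of the 46 pathway genes, 12 higher and 6 lower calls became 5 and 3 with the length offset, 3 and 3 with the replicate block, 1 and 0 with block and length offset, 0 and 0 with block and GC offset, and 3 higher with limma on TPM. With 1 library left out they ranged from 1 to 12 higher and from 2 to 6 lower, with 1 and 2 without control replicate 2, 4 higher without irradiated replicate 1 and 3 higher without irradiated replicate 2. Signs turned for *Bcl2l2* with the GC offset (−0.05), TPM (−0.22), block and GC offset (−0.09) and without control replicate 2 (−0.05, with a highest value of 0.21 without control replicate 3), for *Mcl1* (−0.23), *Bak1* (−0.01) and *Tmbim6* (−0.01) on TPM, and for *Apaf1* with the length offset (0.00) and the block with it (0.08).

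Transcripts of the 7 genes went from 0 to 2 calls without the filter on low counts. The log2 difference in level was 0.08 for *Bcl2l1* in TPM and 0.40 in CPM, −0.22 and 0.06 for *Bcl2l2*, −0.23 and 0.13 for *Mcl1*, −0.01 and 0.25 for *Bak1*, and 0.53 and 1.02 for *Bok*. For *Bcl2l2* it ranged from −0.49 to 0.04 with 1 library left out. With 2 control libraries, a permutation of single values cannot reach an exact p of 0.05, and each of the 7 genes had 385 or more reads in every library.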
